A study of Homo sapiens with 3 samples.

Results

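AP-1 is a family of paired transcription factors built from proteins of the FOS, JUN, ATF and MAF groups. Its transcripts were examined here in HaCaT cells, an immortalised human keratinocyte line, after 24 h with particles. The 10 genes were FOS, FOSB, FOSL1, FOSL2, JUN, JUNB, JUND, ATF3, ATF2 and MAFF, taken as the rows of the gene count table whose Ensembl identifier maps to these symbols. They are 10 of 58735 genes in the table, and all 10 passed a filter of 1 CPM (counts relative to library size) in 1 library or more, as did 14619 genes in all. The members were taken by name, not by a measured value.

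RNA sequencing was done on 3 wild-type (WT) cultures. One was given 50 µg/mL of S1650b, described only as a particulate sample. Another (CB) was given 25 µg/mL of carbon black, manufactured fine particles of carbon, and the control was exposed to no particles. Cells were grown in DMEM with serum, and the particles were given in serum-free DMEM. Each group holds 1 library, so no difference below has a replicate check, no test across cultures was possible and no P value is given.

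AP-1 proteins bind DNA as pairs joined through a leucine zipper. FOS proteins do not pair with each other and need partners such as JUN proteins, while JUN proteins can also pair with each other, so the makeup of the pool sets which pairs can form. FOS, JUN and ATF3 are known as early response genes, switched on by growth factors, oxidants, ultraviolet light and other stress through MAP kinases. In the epidermis AP-1 is known to act on genes of proliferation, inflammation and differentiation, among them the gene of the envelope protein involucrin.

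The motif regions of JUN and ATF3 are shown because both genes had higher counts in the S1650b library and both hold the same 8 letters, TGACATCA, a variant of the cyclic AMP response element (CRE) that JUN and ATF2 proteins are known to bind at JUN. Both sequences come from the RefSeq promoters on GRCh38.p14, with the motif in capitals. The JUN window is chr1:58784096-58784125 on the minus strand, and the ATF3 stretch, at the first of 2 listed starts, is chr1:212565157-212565333 on the plus strand.
JUN: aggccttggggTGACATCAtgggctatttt
ATF3: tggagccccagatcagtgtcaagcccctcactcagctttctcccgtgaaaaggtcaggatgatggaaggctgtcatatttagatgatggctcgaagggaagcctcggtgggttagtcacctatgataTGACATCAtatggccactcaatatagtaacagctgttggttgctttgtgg

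The motif begins 67 bases before the RefSeq start of JUN and 123 bases before that of ATF3. GENCODE 29 places these starts elsewhere: its JUN gene begins 280 bases farther upstream, so the JUN motif lies in the annotated 5′ UTR, 213 bases after that start. Its ATF3 gene begins 73 bases farther upstream, and the ATF3 motif lies 50 bases before that start. Of 35116 RefSeq promoters, each with 250 bases before and 50 after the start, 2.61% hold TGACATCA on either strand. The 3 remaining members with a CRE or a TRE are shown as short windows to set against these, again with the motif in capitals. The CRE is TGACGTCA, and the TRE, the element that FOS and JUN pairs are known to bind, is TGACTCA or TGAGTCA. The windows are chr19:18281804-18281833 (JUND, minus strand), chr22:38201929-38201958 (MAFF, plus strand) and chr2:28392851-28392879 (FOSL2, plus strand).
JUND: ggccgcccccaTGACGTCAacccacaaggc
MAFF: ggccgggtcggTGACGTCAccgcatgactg
FOSL2: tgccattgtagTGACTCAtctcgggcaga

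The CRE begins 200 bases before the start of JUND, which is the same in RefSeq and GENCODE, and 54 before the RefSeq start of MAFF. The TRE lies at base 5 of the RefSeq FOSL2 transcript. In GENCODE 29 the MAFF and FOSL2 motifs lie in annotated UTR exons. A CRE was present in 1.85% of all promoters and a TRE in 4.95%. RefSeq promoters were matched for 8 of the 10 members, with 10 promoters between them. GGGCGG, the GC box, was found in 7 of the 8 members and in 45.0% of all promoters, and CCAAT in 5 of the 8 and in 34.6%. TTACATCA (0.854% of all promoters) and the CArG box, CC and GG around 6 A or T (1.29%), were found in 0 of the 8 members. FOS and FOSB, which also had higher counts in the S1650b library, held no TGACATCA, CRE or TRE. The promoter at the second listed ATF3 start held none of these motifs either. Counts per gene do not separate the ATF3 starts, so which start was used was not tested. The motifs were searched on both strands, none of those shown overlaps another, and a match describes letters in a window only. An absence likewise covers only the 250 bases before and 50 after a listed start, and sequence farther upstream was not searched.

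The libraries hold 20417744 (S1650b), 20946139 (CB) and 20658247 (control) gene counts. Levels are given as FPKM, the authors' value per transcript length and scaled library size, with exact Poisson 95% intervals from the counts. The library size implied by FPKM was 1.14 times that of the control in S1650b and 0.972 times in CB. These ratios differ from those of the gene counts above. A fold is a ratio of CPM scaled with TMM, and its exact 95% interval compares counts only. PCR reads without molecular identifiers are not independent molecules, and all intervals cover counting error only, not differences between cultures. A gene is called higher or lower at a fold of 2 or more in that direction if the interval excludes 1. The S1650b library also differed by base content: against the control the median log2 fold was 0.60 in the eighth of genes with the lowest GC content and −0.42 in the eighth with the highest, and −0.30 in the shortest eighth against 0.49 in the longest. In CB against control these medians were 0.06, −0.07, −0.09 and 0.01. Folds with both trends removed are therefore given beside the S1650b folds of the members and of the genes named from lists.

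All 8 keratinocyte markers were detected in each library, but their summed level was 1629 FPKM in S1650b, 3810 in CB and 3953 in the control. KRT5 (513, 1438 and 1621 FPKM in S1650b, CB and control) and KRT14 (608, 1790 and 1771 FPKM) carried most of that sum. Of the 8, KRT5, KRT14 and KRT6A were called lower in S1650b against control and 0 higher, while KRT17 (fold 1.35), CDH1 (1.31) and TP63 (1.25) had folds above 1. Fibroblast markers summed to 1.48, 3.86 and 9.69 FPKM in S1650b, CB and control, with COL1A2 and PDGFRA at 0 in the control. Endothelial markers summed to 8.53, 6.52 and 10.1 FPKM in the same order, with CLDN5 and ERG at 0 in S1650b and control and PECAM1 at 0 in S1650b. Melanocyte markers summed to between 1.62 and 1.96 FPKM with TYR and DCT at 0 in every library, and immune markers to 1.13, 1.25 and 3.84 FPKM, with PTPRC at 0 in CB and control, LYZ at 0 in CB and CD3E at 0 in the control. Single genes carried most of some sums: CDH5 gave 6.71, 4.29 and 8.41 FPKM of the endothelial sum in S1650b, CB and control. In the control COL3A1 (4.73 FPKM) and DCN (4.19) gave most of the fibroblast sum, and CD74 (2.82) most of the immune sum. Sums carried by so few genes do not show that other cell types were present. The part of these marker differences in the results below was not tested. In such bulk RNA, fewer cells of a type and less RNA per cell cannot be told apart.

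**Figure D1:**
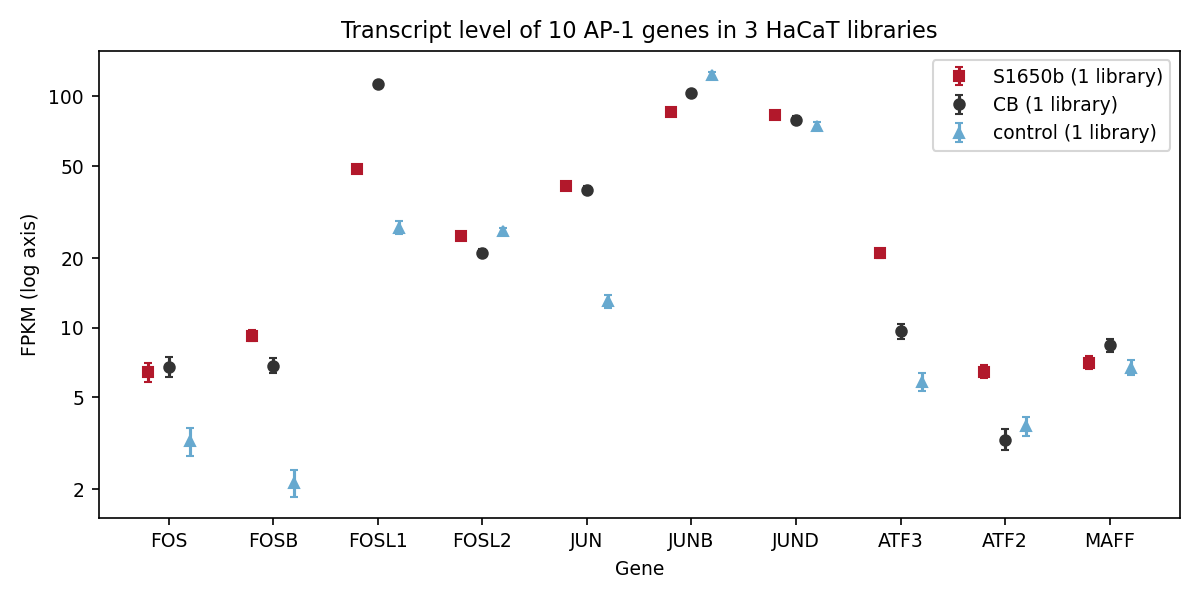
FPKM of each AP-1 gene on a log axis, with 1 point for each library (S1650b, CB, control) and bars for the exact Poisson 95% interval, which covers counting error only. FOSL1 reached 113 FPKM in CB, against 27.1 in the control, while JUND lay between 74.8 and 83.0 FPKM in the 3 libraries.

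Among the FOS genes, FOSL1 was the most abundant in S1650b and CB, level with FOSL2 in the control, and differed most between CB and control. FOSL1 encodes FRA1, a FOS protein without the strong activation domain of FOS, and lies at 11:65892049-65900573 on the minus strand (ENSG00000175592, GRCh38) with 4 exon blocks. It had 2066 counts in S1650b, 4101 in CB and 1013 in the control, which is 48.6 FPKM (46.5 to 50.7), 113 FPKM (109 to 116) and 27.1 FPKM (25.4 to 28.8). The CB library was the highest and the control the lowest, and the 3 intervals did not overlap. In CB against control the fold was 3.99 (3.72 to 4.28), rank 44 from the top of 14619 genes. In S1650b against control the fold was 1.81 (1.67 to 1.95), which did not meet the 2-fold rule; with length and GC trends removed it was 2.59, which did.

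FOSB, at 19:45467995-45475179 on the plus strand (ENSG00000125740), encodes an inducible FOS protein. It had 1159, 734 and 234 counts in S1650b, CB and control, or 9.26 FPKM (8.73 to 9.81), 6.86 FPKM (6.37 to 7.38) and 2.13 FPKM (1.86 to 2.42). The S1650b level was the highest and the control level the lowest, with no overlap of intervals. The fold was 4.39 (3.81 to 5.07) in S1650b against control and 4.92 with the trends removed. In CB against control it was 3.09 (2.66 to 3.60).

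FOS, at 14:75278774-75282230 on the plus strand (ENSG00000170345), is the founding member and the classic early gene. It had 469, 422 and 207 counts in S1650b, CB and control, or 6.42 FPKM (5.86 to 7.03), 6.77 FPKM (6.14 to 7.44) and 3.23 FPKM (2.80 to 3.70). Both particle libraries lay above the control and their own intervals overlapped. The fold was 2.01 in S1650b against control (1.70 to 2.37) and 2.01 in CB against control (1.70 to 2.38), both just past the 2-fold rule. Across 8 other scalings and trend removals it ran from 1.84 to 2.50 in S1650b and from 1.98 to 2.09 in CB, so the call is lost under some of them.

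FOSL2, which encodes FRA2, had 4036, 2901 and 3706 counts in S1650b, CB and control, or 25.0 FPKM (24.2 to 25.8), 21.0 FPKM (20.3 to 21.8) and 26.1 FPKM (25.3 to 27.0). The CB level was the lowest, and the intervals of S1650b and control overlapped. Its fold was 0.964 (0.922 to 1.01) in S1650b against control (0.923 with the trends removed) and 0.771 (0.734 to 0.810) in CB against control, and neither met the rule. The gene lies at 2:28392448-28417312 on the plus strand (ENSG00000075426).

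Summed FOS family transcripts came to 89.3 FPKM in S1650b, 148 in CB and 58.6 in the control, a ratio to the control of 1.52 in S1650b and 2.52 in CB. The CB ratio was 1.58 in raw counts, which weigh long transcripts more. FOSL1 made up 54.4% of this sum in S1650b (53.1 to 55.7, a 95% interval from Poisson counts), 76.5% in CB (75.7 to 77.3) and 46.3% in the control (44.5 to 48.0). FOSL2 held 28.0% in S1650b, 14.3% in CB and 44.6% in the control. These shares do not depend on the scaling between libraries, though they do use the authors' lengths. No length or GC trend was removed from the sums, from these shares or from the ratios between FOS genes below. FOS and FOSB together were the smaller portion in every library, with FOSB at 10.4%, 4.65% and 3.63% and FOS at 7.20%, 4.59% and 5.51% in S1650b, CB and control.

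The order of single FOS genes within a library differed as well. FOSL1 stood at 1.94 times FOSL2 in S1650b (1.84 to 2.05), at 5.36 times in CB (5.11 to 5.62) and at 1.04 times in the control (0.966 to 1.11), all in FPKM. The control was thus the library in which the intervals of these genes overlapped. FOSB stood at 1.44 times FOS in S1650b (1.29 to 1.61), 1.01 times in CB (0.899 to 1.15) and 0.659 times in the control (0.544 to 0.799). FOSB was above FOS in S1650b and below it in the control.

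**Figure D2:**
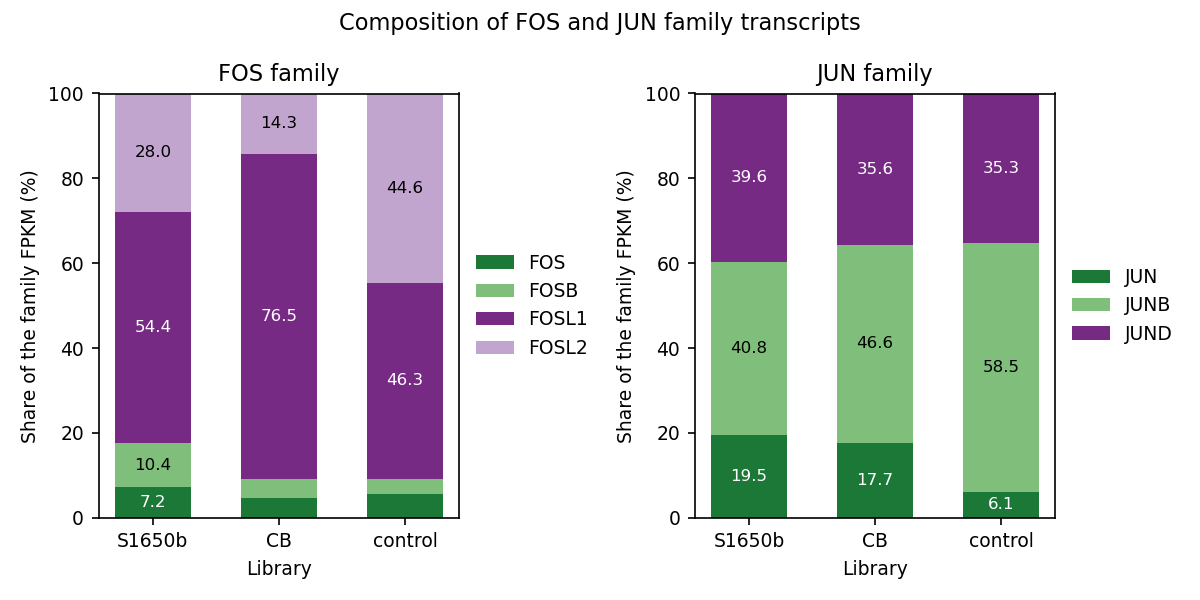
Share of each gene in the summed FPKM of the FOS family and of the JUN family, as stacked bars from 0 to 100%, with 1 bar for each library (S1650b, CB, control). FOSL1 fills 54.4% in S1650b, 76.5% in CB and 46.3% in the control, and JUN 19.5%, 17.7% and 6.14% of its own family in the same libraries.

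The JUN genes supply the best known partners of FOS proteins, and of the 3, JUN alone was called. JUN is a gene without introns at 1:58780788-58784327 on the minus strand (ENSG00000177606), and its protein is a target of the JUN N-terminal kinases. It had 3266, 2684 and 912 counts in S1650b, CB and control, or 40.9 FPKM (39.5 to 42.3), 39.4 FPKM (37.9 to 40.9) and 13.0 FPKM (12.2 to 13.9). Both particle libraries lay well above the control, with overlapping intervals between them. The fold was 3.17 (2.95 to 3.42) in S1650b against control, 4.09 with the trends removed, and 2.90 (2.69 to 3.13) in CB against control.

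JUNB, whose protein can dampen JUN activity at some promoters, went the other way in the deposited values. It had 3507, 3627 and 4469 counts in S1650b, CB and control, or 85.5 FPKM (82.7 to 88.3), 103 FPKM (100.1 to 106.9) and 124 FPKM (120.3 to 127.6). The control was the highest and S1650b the lowest, with separate intervals. The fold was 0.695 (0.665 to 0.726) in S1650b against control and 0.800 (0.765 to 0.836) in CB against control, and neither met the rule. With length and GC trends removed the S1650b fold was 0.990; the transcript has a GC content of 64.9%, above 96.3% of the genes tested. HOOK2, on the opposite strand, overlaps 14.2% of the JUNB exons (19:12791496-12793315, ENSG00000171223) and had 1965, 2189 and 2200 counts in S1650b, CB and control. The sources used here do not give whether reads were split by strand.

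JUND, often linked to quiescent cells, varied least of the 10 genes between the 3 libraries by FPKM. It had 3487, 2835 and 2763 counts in S1650b, CB and control, or 83.0 FPKM (80.3 to 85.8), 79.0 FPKM (76.1 to 82.0) and 74.8 FPKM (72.1 to 77.7). Neighbouring intervals overlapped, while those of S1650b and control did not. Its fold was 1.12 (1.06 to 1.18) in S1650b against control and 1.01 (0.959 to 1.07) in CB against control. JUND (19:18279760-18281622, minus strand, ENSG00000130522) has the highest GC content of the 10 genes, 69.7%, and with the trends removed its S1650b fold was 1.55.

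With no trend removed, the JUN family sum was nearly level, at 209, 222 and 212 FPKM in S1650b, CB and control. With length and GC trends removed, the S1650b folds against control were 4.09 (JUN), 0.990 (JUNB) and 1.55 (JUND). The shares and ratios of this paragraph are from FPKM with no trend removed. Within the FPKM sum JUN held 19.5% in S1650b (18.9 to 20.2), 17.7% in CB (17.1 to 18.4) and 6.14% in the control (5.74 to 6.54). JUNB held 40.8% in S1650b (39.8 to 41.8), 46.6% in CB (45.6 to 47.7) and 58.5% in the control (57.4 to 59.6). The JUN to JUNB ratio in FPKM was 0.479 in S1650b, 0.380 in CB and 0.105 in the control, so JUNB stayed the more abundant of the pair throughout. FOSL1 stood at 1.19 times JUN in S1650b, 2.87 times in CB and 2.08 times in the control.

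ATF3 had the largest fold of S1650b over CB among the 10 genes. ATF3 is a stress-induced factor that can repress as a pair with itself and activate as a pair with JUN proteins, at 1:212565334-212620777 on the plus strand (ENSG00000162772). It had 1917, 751 and 468 counts in S1650b, CB and control, or 21.0 FPKM (20.1 to 22.0), 9.65 FPKM (8.97 to 10.4) and 5.85 FPKM (5.33 to 6.40). S1650b was the highest and the control the lowest, with no overlap of intervals. The fold was 3.63 (3.28 to 4.02) in S1650b against control, 3.48 with the trends removed, and 1.58 (1.41 to 1.78) in CB against control, which is under the rule.

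ATF2, a constitutive factor activated by stress kinases and a partner of JUN, had 839, 364 and 427 counts in S1650b, CB and control. This is 6.47 FPKM (6.04 to 6.92), 3.29 FPKM (2.96 to 3.64) and 3.75 FPKM (3.40 to 4.12), with S1650b the highest and the intervals of CB and control overlapping. Its fold was 1.74 (1.55 to 1.96) in S1650b against control and 0.840 (0.728 to 0.968) in CB against control. ATF2 lies at 2:175072250-175168382 on the minus strand (ENSG00000115966), spans 21 exon blocks and has a GC content of 36.9%, above that of only 4.55% of genes tested. With the trends removed the S1650b fold was 1.15. Exons of other genes overlap 5.06% of it. ATF3 stood at 3.25 times ATF2 in S1650b, 2.94 times in CB and 1.56 times in the control, in FPKM.

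MAFF, a small MAF protein without an activation domain that pairs with FOS proteins and with NRF2, lies at 22:38200767-38216511 on the plus strand (ENSG00000185022). It had 895, 907 and 748 counts in S1650b, CB and control, or 7.07 FPKM (6.61 to 7.55), 8.39 FPKM (7.85 to 8.95) and 6.72 FPKM (6.25 to 7.22). CB was the highest, and the intervals of S1650b and control overlapped. Its fold was 1.06 (0.960 to 1.17) in S1650b against control, 1.21 with the trends removed, and 1.19 (1.08 to 1.32) in CB against control, neither of which met the rule.

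By FPKM the order differed between libraries. In S1650b JUNB and JUND led with overlapping intervals, followed by FOSL1, JUN, FOSL2, ATF3 and FOSB, and then by MAFF, ATF2 and FOS, which did not differ beyond counting error. In CB FOSL1 led, followed by JUNB, JUND, JUN, FOSL2, ATF3 and MAFF, then by FOSB and FOS with overlapping intervals, and ATF2 last. In the control JUNB led, followed by JUND, FOSL1, FOSL2, JUN, MAFF, ATF3, ATF2 and FOS, with FOSB last. There the intervals overlapped between FOSL1 and FOSL2, between MAFF and ATF3, and between ATF2 and FOS. An overlap of such intervals does not show that levels were equal.

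S1650b was set against the control to ask about exposure to the particulate sample, with 1 culture on each side. Of the 10 members 4 were higher (FOS, FOSB, JUN and ATF3) and 0 lower, against 12.1% of all tested genes higher and 7.86% lower. The members had a median log2 fold of 0.83, beside −0.04 over all genes. At a fold of 1.5, FOSL1 and ATF2 also passed. With length and GC trends removed 5 members were higher, the fifth being FOSL1, and the member median was 0.97, beside −0.10 over all genes.

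CB was set against the control to ask about exposure to carbon black, again with 1 culture on each side. Of the 10 members 4 were higher (FOS, FOSB, FOSL1 and JUN) and 0 lower, where 1.71% of all tested genes were higher and 5.53% lower. The median log2 fold was 0.46 for the members and 0.00 over all genes. From the top of 14619 genes FOSL1 ranked 44, FOSB 88, JUN 107 and FOS 288, while ATF3 ranked 728. Both comparisons use the same control library, so they are not independent of each other.

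S1650b and CB differ in material and in dose, and these cannot be told apart. Of the 10 members ATF3 and ATF2 were higher in S1650b and FOSL1 was lower, that is 2 and 1, where 15.8% of all tested genes were higher and 9.54% lower. The fold of ATF3 was 2.29 (2.11 to 2.50), and 2.33 with the trends removed. FOSL1 was 2.21-fold lower (2.09 to 2.33), but 1.59-fold lower with the trends removed, which is under the rule. ATF2 had a fold of 2.07 (1.83 to 2.35), and 1.46 with the trends removed. FOS had a fold of 0.999 (0.874 to 1.14), an interval that spans 1, and JUN a fold of 1.09 (1.04 to 1.15); with the trends removed these were 1.26 and 1.42. The remaining members had folds between 0.869 (JUNB, 1.20 with the trends removed) and 1.42 (FOSB, 1.60).

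**Figure D3:**
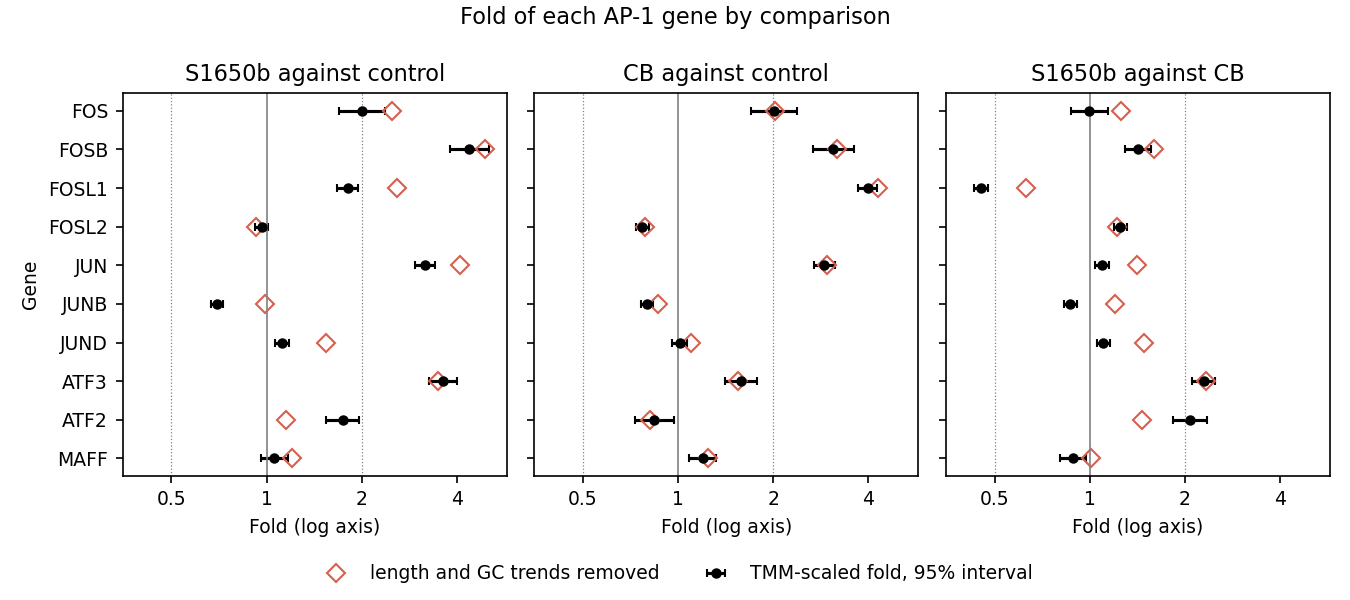
Fold of each AP-1 gene on a log axis in S1650b against control, CB against control and S1650b against CB; black points are TMM-scaled folds with exact 95% intervals of counting error and open diamonds are folds with length and GC trends removed. JUN, FOSB and ATF3 lie above 2 in S1650b against control on both scales, while ATF2 lies at 1.74, and at 1.15 with the trends removed.

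**Figure D4:**
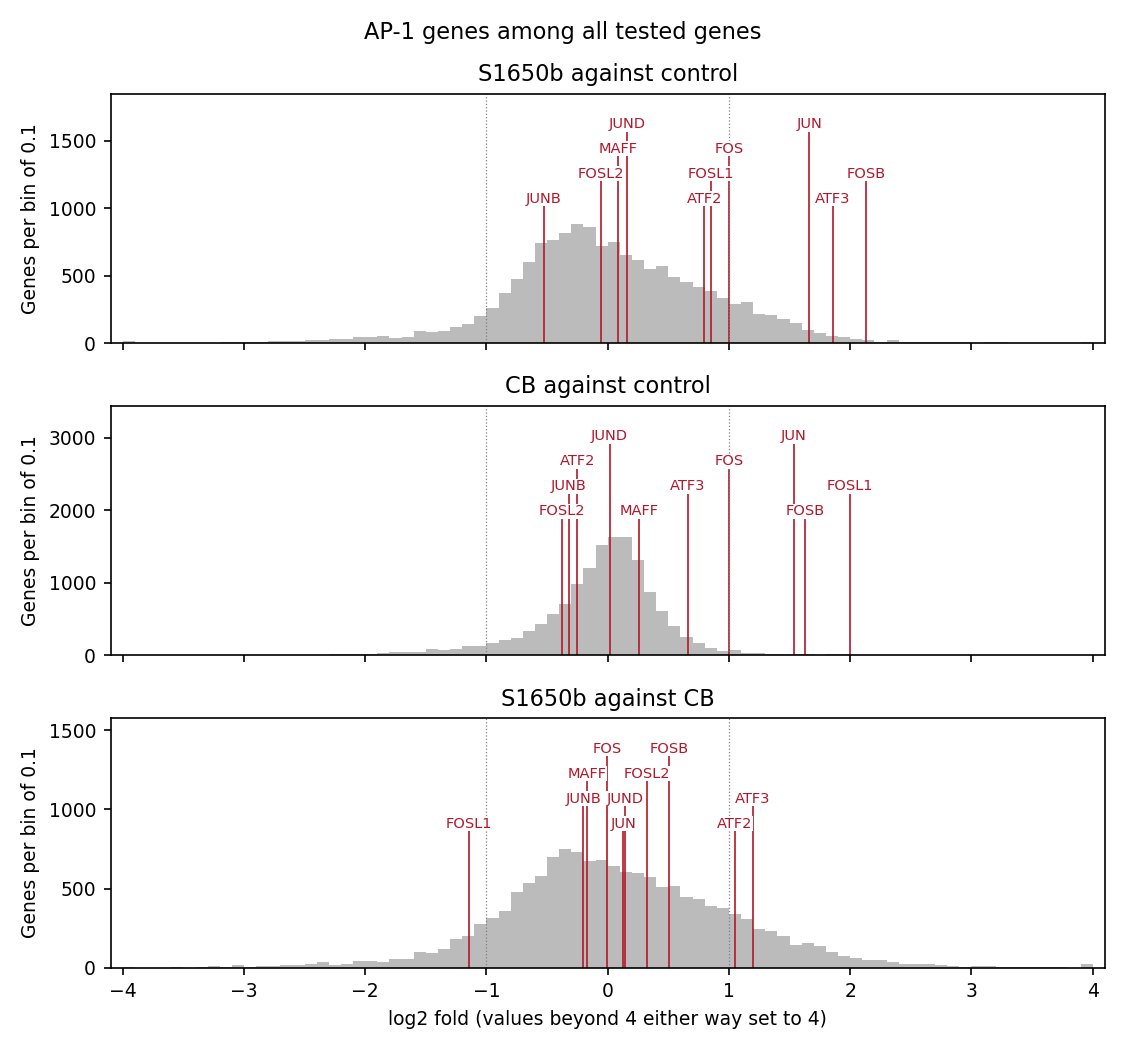
Number of tested genes in each bin of 0.1 of log2 fold (grey) with the AP-1 genes as red lines, in S1650b against control, CB against control and S1650b against CB; dotted lines mark 2-fold either way and the height of a red line has no meaning. FOSL1, FOSB and JUN lie in the right tail in CB against control, where 1.71% of genes were called higher.

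The gene lists that follow were written for other steps of the AP-1 pathway and are described by counts only. The counts are to be read against all tested genes, of which 12.1% were higher and 7.86% lower in S1650b against control, 1.71% and 5.53% in CB against control, and 15.8% and 9.54% in S1650b against CB. Kinases and phosphatases of the MAP kinase cascade, which switch AP-1 on, had 32 of 32 listed genes tested. In S1650b against control 5 were higher and 0 lower, with a median log2 fold of 0.04. RPS6KA5, the kinase MSK1, had 308 counts in S1650b and 107 in the control, a fold of 2.55, and MAP3K7, the kinase TAK1, had 791 and 335, a fold of 2.09. MAP2K4, which phosphorylates JUN N-terminal kinases, had a fold of 2.05, and RPS6KA3 of 2.03. With length and GC trends removed these 4 folds were 1.09, 1.28, 1.49 and 1.12 in the same order, all under the rule, and 0 of the 32 were higher and 2 lower. With CB set against control, 0 of 32 were higher and 1 was lower: MAP2K6, which activates p38 kinases, was 2.31-fold lower on 61 counts in CB and 139 in the control. In S1650b against CB 5 were higher and 1 lower, among them RPS6KA2 with 86 counts in S1650b and 20 in CB (fold 3.86, and 3.60 with the trends removed). It was the one gene still higher there with the trends removed, where MAP3K7 was at 1.42, RPS6KA3 at 1.17, MAP3K1 at 1.43 and RPS6KA5 at 0.937.

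Factors that bind the FOS and JUN promoters had 9 of 9 genes tested, with 0 called in CB against control. In S1650b against control 3 were higher, with a median of 0.58: ELK4, a partner of serum response factor (fold 2.30), MEF2C (2.46) and MRTFB, an actin-regulated coactivator (2.12). With the trends removed their folds were 1.15, 1.25 and 1.17. The same 3 genes were the ones called in S1650b against CB, with MEF2C at 4.66 on 477 counts in S1650b and 92 in CB (2.53 with the trends removed). Genes of JUN protein turnover had 9 of 10 tested, with 2 higher in S1650b against control and 0 called in CB against control. ITCH, a ubiquitin ligase for JUN proteins, had 4281 counts in S1650b and 1113 in the control, a fold of 3.41, and 2.18 with the trends removed. CUL4B, a ubiquitin ligase scaffold, had a fold of 2.59, and 1.59 with the trends removed. Of 11 genes of AU-rich element binding and decay, which act on the life of early response transcripts, 1 was higher and 1 lower in S1650b against control. In CB against control 0 of them were called. CNOT1, the scaffold of the deadenylase complex, had a fold of 2.48 (1.56 with the trends removed), and ZFP36L2, a decay factor, was 2.24-fold lower (1.81-fold with the trends removed), so neither call held. With the trends removed, 0 decay genes were higher and 2 others were lower in S1650b against control. The median was then −0.48, beside −0.10 over all genes. In S1650b against CB, 3 of the turnover genes were higher and 0 lower, with FBXW7, a ligase subunit for phosphorylated JUN, at a fold of 2.11 (1.43 with the trends removed). Of the decay genes CNOT1 was higher (fold 2.56) and KHSRP 2.10-fold lower there. With the trends removed these were 1.71 and 1.75-fold lower, both under the rule, and the list had 0 genes higher and 3 lower.

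Other factors with a leucine zipper had 25 of 30 genes tested. In S1650b against control 4 were higher and 2 lower, with a median of −0.19. MAF had 65 counts in S1650b and 3 in the control, a ratio of 19.2 with a wide counting interval (6.28 to 95.4), and 15.2 with the trends removed. BACH1, a repressor of the heme oxygenase gene, had a fold of 2.83 (1.69 with the trends removed). JDP2, a JUN dimerisation partner that represses AP-1 sites, had 867 counts in S1650b and 1589 in the control and was 2.07-fold lower (2.12-fold with the trends removed). MAFA alone was called in CB against control, 2.25-fold lower on 23 counts in CB and 51 in the control. In S1650b against CB 4 were higher and 3 lower, the lower ones being ATF4, the factor of the amino acid response (6963 counts in S1650b and 13213 in CB, 2.11-fold lower), CEBPB (2.11-fold lower) and JDP2 (2.06-fold lower). With the trends removed ATF4 was 1.56-fold and CEBPB 1.54-fold lower, under the rule, and JDP2 2.06-fold lower.

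Early response genes outside the 10 members had 17 of 21 tested. With CB set against control, 3 were called higher and 1 lower, with a median of 0.27: KLF2 (41 counts in CB and 11 in the control, fold 3.67), EGR3 (57 and 19, fold 2.96) and NR4A1 (102 and 43, fold 2.34) were higher. BTG2, an antiproliferative gene, was 4.27-fold lower on 675 counts in CB and 2843 in the control. In S1650b against control 2 were higher and 0 lower, with a median of 0.34: KLF10 (895 counts in S1650b and 369 in the control, fold 2.15) and NR4A3 (44 and 13, fold 2.997). Trend removal gave 2.10 and 2.50, and 4 genes of the list were higher. EGR1, among the best known of these genes, had 3162, 3623 and 2793 counts in S1650b, CB and control and was called in neither comparison. In S1650b against CB 3 genes of this list were higher and 0 lower: BTG2 (1868 counts in S1650b and 675 in CB, fold 2.49), KLF10 (2.15) and NR4A3 (3.29). These were 3.01, 2.22 and 2.89 with the trends removed.

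Genes that AP-1 is known to act on in keratinocytes went both ways, with 17 of 25 tested. In CB against control 1 was higher and 5 lower, with a median of −0.04, and in S1650b against control 2 were higher and 4 lower, with a median of 0.06. CXCL8, a neutrophil chemokine, was the 1 higher in CB (558 counts in CB and 177 in the control, fold 3.11). KRT1 (5, 5 and 77 counts in S1650b, CB and control) and TGM1 (117, 216 and 529) were called lower in both particle libraries. In S1650b against control they were 17.4-fold and 5.11-fold lower, and 13.5-fold and 3.95-fold with the trends removed. Among those higher in S1650b was ITGA2, a collagen receptor subunit (6547 counts in S1650b and 1170 in the control, fold 4.95). With the trends removed its fold was 3.001. MMP1, a collagenase with a TRE in its promoter, had 2, 10 and 25 counts in S1650b, CB and control. It was 14.1-fold lower in S1650b than in the control, with a counting interval of 3.52 to 123, and 14.6-fold lower with the trends removed. MMP13, another collagenase, had 258, 144 and 441 counts in S1650b, CB and control and was 3.11-fold lower in CB than in the control. In S1650b against CB 2 genes were higher, among them ITGA2 (fold 5.09, and 3.27 with the trends removed), and 4 were lower. After trend removal this list had 4 higher and 2 lower there, and 2 higher and 6 lower in S1650b against control. CXCL8 was 5.91-fold lower in S1650b than in CB, on 105 and 558 counts, with the same call when the trends are removed. HBEGF, a ligand of the EGF receptor, was 2.05-fold lower in S1650b than in CB, on 174 and 321 counts, and 1.69-fold lower with the trends removed.

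The genes most like FOS, FOSL1, JUN and ATF3 were sought among 10014 genes with at least 10 CPM in 1 library, by the distance between their pairs of log2 folds against the control. This measure rests on 3 libraries and 2 folds that share the control, with no trend removed. DUSP4, a phosphatase of MAP kinases, lay nearest to FOS (distance 0.057), and 12 genes lay within 0.25. PTHLH, parathyroid hormone-like hormone, lay nearest to JUN (0.143), with 1 gene within 0.25. PTPRB, a receptor phosphatase, lay nearest to ATF3 (0.059), with 9 genes within 0.25. FOSL1 had 0 genes within 0.25; the nearest was AREG, a ligand of the EGF receptor, at 0.375, with folds of 2.11 in S1650b and 4.94 in CB against the control, and ETV5, an ETS factor, followed at 0.485. The other genes picked in this way were NRP1 and MYADM for FOS, CHST11 and RAI14 for JUN and ZNF280C and CEP170 for ATF3. GTF2IP1, also picked for FOSL1, is a pseudogene copy whose reads may come from its near-identical relatives.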

How the data were processed

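RNA of 3 HaCaT libraries, 1 for each group, was extracted with Trizol and prepared with a NEBNext Ultra kit, per the labels' protocols. The deposited counts are whole reads per Ensembl gene, and the deposited FPKM values were computed by the authors. CASAVA 1.7 and mouse builds (mm8, mm9) appear in the submitters' processing notes; these builds conflict with the human identifiers. The sources used here do not give the aligner, counter, strand use or build. GENCODE 29 on GRCh38 gave positions, exon lengths and the GC content of the longest transcript.

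Counts were scaled with TMM (edgeR 4.0.16, R 4.3.3; control as its reference library) and genes at 1 CPM or more in any library were tested. Folds have exact 95% conditional binomial (Clopper-Pearson) intervals, with 0.5 counts added before log2. Alternatives were total counts, DESeq2 1.42.0 size factors, upper quartile, FPKM with 0.1 added, a prior of 5 counts, other filters and folds, and removal of trends with length, GC or both (lowess, span 30%). Code was tested on simulated data. Other tools were scipy 1.17.1, numpy 2.4.6, statsmodels 0.14.6, pandas 2.3.3 and matplotlib 3.10.9 in Python 3.11.15.

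The members, the 7 related lists and the markers were chosen with earlier results of these data known. From each related list, up to 4 genes in each direction past the rule, ranked by the interval end nearest to 1, could be named, and the text gives a part of them; 1 gene that this rule picks is counted but not reported here. EGR1 and the neighbours of the members were chosen after their values were seen. For likeness the 3 nearest genes were taken.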

Additional observations from a re-analysis of the deposited data

How the results depend on the processing

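No paired analysis was possible because each group holds 1 library, and for the same reason no library could be left out. Of the 30 folds of members, 11 were called, and 7 of these kept the call under all 8 other scalings, units, priors and trend removals; 0 turned to the other side of 1, while 6 of the 19 uncalled folds did so under at least 1 of them. The calls that were lost under some were FOS in both comparisons with the control, and FOSL1 and ATF2 in S1650b against CB. Scaling by total counts moved the median of all genes to 0.15 in S1650b against control (−0.04 with TMM) and to 0.21 in S1650b against CB (0.01 with TMM), and upper quartile scaling gave −0.17 in S1650b against control.

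Members higher in CB against control were 2 at a fold of 3. Members higher in S1650b against CB were 1 with DESeq2 size factors, upper quartile, FPKM or removal of the length trend, the GC trend or both, and 0 at a fold of 3. Members lower there were 0 with total counts, at a fold of 3 and with removal of either trend or both. FOSL1 held 26.7% of raw FOS family counts in S1650b, 50.3% in CB and 19.6% in the control, and JUN 31.8%, 29.3% and 11.2% of raw JUN family counts. FOS family raw counts summed to 7730 in S1650b, 8158 in CB and 5160 in the control. The ratio was 1.58 in CB against control (2.52 in FPKM) and 0.948 in S1650b against CB (0.605 in FPKM). Raw counts weigh long transcripts more and are not scaled for library size. In counts per exon length, also unscaled and so without the scaled library size that FPKM uses, the S1650b against CB ratio was 0.708. Over all genes, those higher in CB against control were 468 without a filter, 77 at 5 CPM, 710 at a fold of 1.5 and 87 at 3, and those lower 523 with FPKM, 290 at 5 CPM, 1530 at 1.5 and 308 at 3. In S1650b against control they were 3236 higher at 1.5, 475 at 3, 1052 without the GC trend and 930 without both trends, and 2804 lower at 1.5 and 463 at 3. In S1650b against CB they were 1380 higher at 5 CPM, 3814 at 1.5 and 884 at 3, and 929 lower with total counts, 3036 at 1.5 and 453 at 3. The 7 related lists together had 11 higher at 1.5 in CB against control. They had 32 higher and 20 lower at 1.5 in S1650b against control, and 35 and 25 at 1.5 in S1650b against CB. With both trends removed they had 9 higher and 11 lower in S1650b against control. Those 2 counts use a fold of 2, so they cannot be set against the 32 and 20 at 1.5. The cause of these shifts was not tested. Counting error limits low genes such as MMP1, MAF and NR4A3, and differences between cultures were not measured.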

Other observations

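Genes within 10 kb of the members were compared with them. CCDC85B lies on the opposite strand, with 414 bases between the nearest ends of the 2 genes. It had 2118, 3012 and 1958 counts in S1650b, CB and control. Its fold was 1.52 (1.43 to 1.61) in CB against control, where FOSL1 had 3.99. FIBP, 3510 bases from FOSL1 on the same strand, had 1618, 2635 and 2359 counts in the same order, a fold of 1.10 in CB against control. FOSL1 thus had a larger fold than either neighbour in that comparison. FOSL2-AS1, antisense to FOSL2 and without shared exons, had 57, 13 and 36 counts in S1650b, CB and control. PLA2G6, which lies within reach of MAFF on the opposite strand, had 425, 171 and 390 counts in S1650b, CB and control, a fold of 0.432 in CB against control, where MAFF had 1.19. PRDX2, a peroxiredoxin near JUNB, had 2807, 4927 and 4823 counts, and ATP5MC3, a subunit of ATP synthase near ATF2, had 3588, 7218 and 6140 counts in S1650b, CB and control.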
